A study of Arabis alpina with 2 samples.

Results

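Chromosome 8 of Arabis alpina carried 223 single-base changes that were listed in a pool of eop055 mutant plants and not in their progenitor, out of 1390 such markers in the genome and 14923 variants listed in the pool. They were chosen by 5 criteria: a position on chromosome 8, a G-to-A or C-to-T change, a variant quality of at least 25, a coverage of at least 10 reads, and a position that was not listed in the progenitor. The chromosome itself had been picked because its allele frequencies were high. Allele frequencies are therefore given below as a description, with no test.

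Both libraries were genomic DNA of flower buds, from plants of the Pajares accession at the start of the reproductive stage, grown in long days. One library came from eop055BC1F2, a family made by selfing the eop055 mutant, crossing it back to the non-mutagenised pep1-1, and selfing again, with plants taken by their mutant phenotype. The other came from pep1-1, and eop055 carries the pep1-1 mutation too, so that lesion is common to both. There was 1 library per group, the sources used here give no number of plants for it, and 1 pool stands for 1 mutant line. PEP1 is a floral repressor, the counterpart of FLOWERING LOCUS C of Arabidopsis, and pep1 mutants flower without the winter cold that Pajares needs.

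Mapping by sequencing rests on linkage. Alkylating mutagens mainly change a G to an A, which reads as C-to-T when the altered base sits on the other strand. After a backcross and selfing, a mutagen-induced change that is unlinked to the trait segregates around an allele frequency of 0.5. Picking plants for a recessive phenotype drives the causal change to 1, and a linked change stays above 0.5 in proportion to how rarely a crossover separates it from the causal change. The study's title concerns an APETALA2-like transcription factor, a family whose members repress flowering in Arabidopsis and are targets of miR172. The files name no genes and the sources used here state no genome build, so the place of that gene against the sites below was not analysed here, and no sequence around a site is shown. Positions are counted from 1 as the files list them, and a site is written as the reference base, the position and the base in the pool.

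Depth at the markers was ordinary: a median of 66 reads, with quartiles at 57 and 74, against medians of 65 to 72.5 on the other 7 chromosomes. Wilson 95% intervals on an allele frequency cover the sampling of reads and not that of plants. Of the 223, 40 were near-fixed, at 0.9 or more, which is 17.9% (13.5 to 23.5%), where 4.17% of all 1390 markers were. Those 1390 include chromosome 8, which held 40 of their 58 near-fixed markers. Chromosome 2 held 11 among its 116 markers, chromosomes 4 and 7 held 1 each, and chromosomes 1, 3, 5 and 6 held 0. The rest of the 58 lay on sequences outside the 8 chromosomes, which hold 1339 of the 1390 markers. Of the 223, 7 stood at 0.98 or more, or 3.14% (1.53 to 6.34%), against 18 of all 1390 markers, or 1.29%. Most of those 18 lay off chromosome 8. The lowest quality that passed was that of G2967386A (26.5, allele frequency 0.497), and the highest that failed was that of G23631475A (24.5, allele frequency 0.726). The lowest coverage that passed was 19 reads at G17179612A (allele frequency 0.368), and the next below the minimum was G7091883A with 2 reads, both carrying the change.

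The fixed sites fell into a cluster and a pair of strays. The cluster held 5 G-to-A changes between 40043546 and 42099253, a span of 2.06 Mb. These were G40043546A with 61 of 61 reads, G41071837A with 68 of 69, G41140691A with 70 of 70, G41352686A with 62 of 62 and G42099253A with 69 of 70. Together they showed 2 reference reads in 332, or 0.602% (0.165 to 2.17%). The 3 sites with no reference read had 193 reads, which allows a reference share of up to 1.55%.

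G41071837A, G41140691A and G41352686A followed each other with no other marker between them, the longest unbroken run at 0.98 or more on the chromosome. They spanned 0.281 Mb, with gaps of 68.9 kb and 212 kb. The markers on either side of the run lay 1.22 Mb apart and both showed reference reads. On the left, G40349822A had 3 reference reads in 52, an allele frequency of 0.942 (0.844 to 0.9802). On the right, G41574114A had 5 in 52, an allele frequency of 0.904 (0.794 to 0.958), which lay below the median of its 10 nearest markers, 0.964.

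These reference reads were set against changes already fixed in the progenitor. On chromosome 8, 311 changes stood at 0.98 or more in pep1-1 with 10 to 100 reads, and all 311 were listed in the pool. In the pool they gave 36 reference reads in 19585, or 0.184% (0.133 to 0.254%), and 289 of the 311 had no reference read at all. Only 3 of the 311 had 3 or more, the number seen at G40349822A, while G41574114A had 5. Within the span of the cluster, 12 such sites gave 0 reference reads in 751. G40349822A and G41574114A together had 8 in 104, or 7.69% (3.95 to 14.4%), but these 2 sites were picked for standing under 0.98 in the pool, so their higher share is no test. The comparison was chosen after the values were seen.

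**Figure D1:**
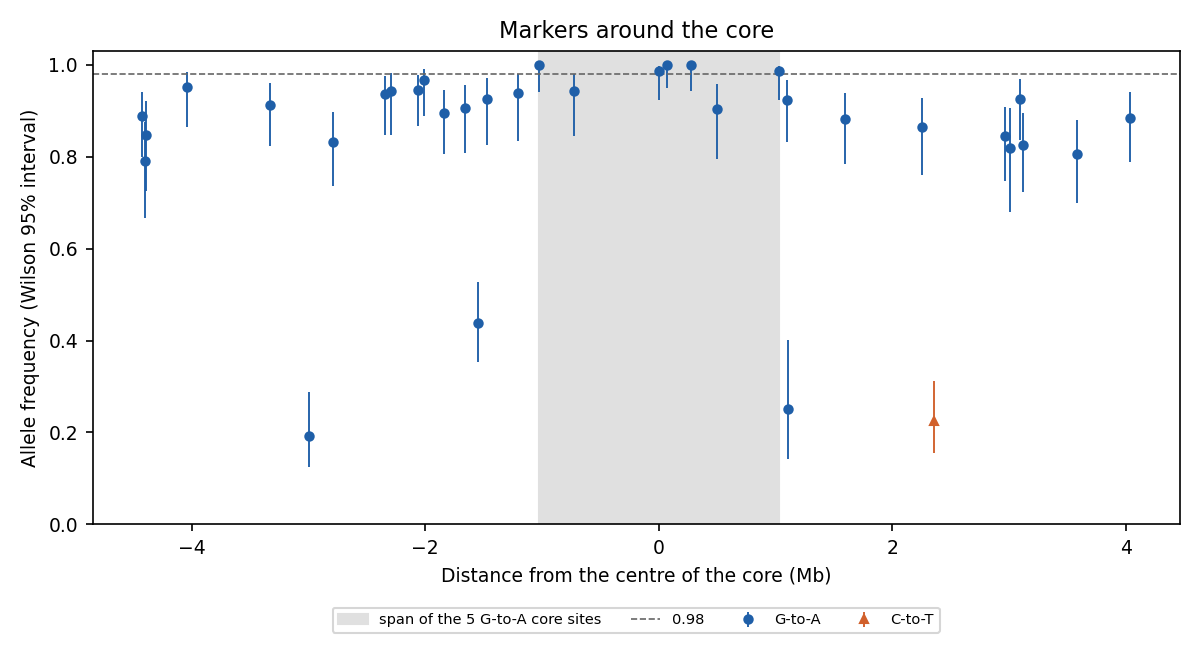
Allele frequency in the pool of the chromosome 8 markers within 4.5 Mb of the centre of the fixed cluster, against their distance from that centre in Mb, with Wilson 95% intervals as bars, the cluster's span in grey and a dashed line at 0.98. All 5 sites at or above the line lie in the grey span, G40349822A (0.942) and G41574114A (0.904) sit below the line inside it, and the markers under 0.5, such as G39527243A at 0.438, lie outside it.

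The nearest markers outside the cluster were already lower on both sides. On the left these were G39868121A at 0.939 (3 reference reads in 49), G39602965A at 0.926 (4 in 54), G39416335A at 0.905 (6 in 63) and G39232229A at 0.895 (8 in 76). The fifth, G39527243A, stood at 0.438 with 121 reads. The fall on the left was not steady, since markers further out were higher again. Among them, named after their values were seen, were G39064926A at 0.967 (2 reference reads in 61) and G39009376A at 0.944 (4 in 72). On the right G42167978A, only 68.7 kb past the last cluster site, had 5 reference reads in 65 (0.923), followed by G42668316A at 0.882 (8 in 68) and G43325401A at 0.864 (9 in 66). G42178382A at 0.25 and C43428729T at 0.224 were the other two of the 5 on that side. The intervals of G39868121A (0.835 to 0.979) and G42167978A (0.832 to 0.967) overlapped those of the fixed sites, so reads alone did not set the edges of the cluster. These 2 markers lie 2.30 Mb apart.

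No other kind of change in the pool-only list reached fixation there. Between the first and last cluster site the list held 30 positions, of which 7 were markers. The other 23 reached at most 0.6, and none of them was a G-to-A or C-to-T site that had missed a minimum. Just outside, C39867840T had 40 of 41 reads with the change but a variant quality of 15.6, and so was no marker. It is named after its values were seen.

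The stray fixed sites were both C-to-T and lay far from the cluster. C1121957T had 54 of 54 reads (0.934 to 1), while the median of its 10 nearest markers was 0.572. C21542878T had 65 of 65 reads (0.944 to 1), against 0.842. With these 2 included, sites at 0.98 or more spanned 40.98 Mb, so the cluster and the distances from it rest on the G-to-A sites, a choice made after the values were seen. The nearest entry in the progenitor list lay 28937 bases from C1121957T, with a coverage of 21 reads, and 11736 bases from C21542878T, with 55 reads. The progenitor's depth at the sites themselves is not listed.

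Which of the 2 changes a site carried, a feature that reflects the strand and did not decide membership, differed between the markers and the older variants of the progenitor. Of the 223 markers 209 were G-to-A, or 93.7% (89.7 to 96.2%). Of the 311 changes fixed in pep1-1, 285 were C-to-T, or 91.6%, and only 8 were G-to-A. The one-sidedness of the markers was not particular to chromosome 8: chromosome 3 had 93.8% G-to-A (88.9 to 96.6%), with 150 of 160. The commoner type made up 79.9% on chromosome 1 (C-to-T), 81.2% on chromosome 4, 77.7% on chromosome 7 and 69.8% on chromosome 2 (all G-to-A), and 59.7% on chromosome 5 and 50.4% on chromosome 6 (both C-to-T). The longest run of markers of 1 type was 47 on chromosome 8 and between 19 and 43 on the others.

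**Figure D2:**
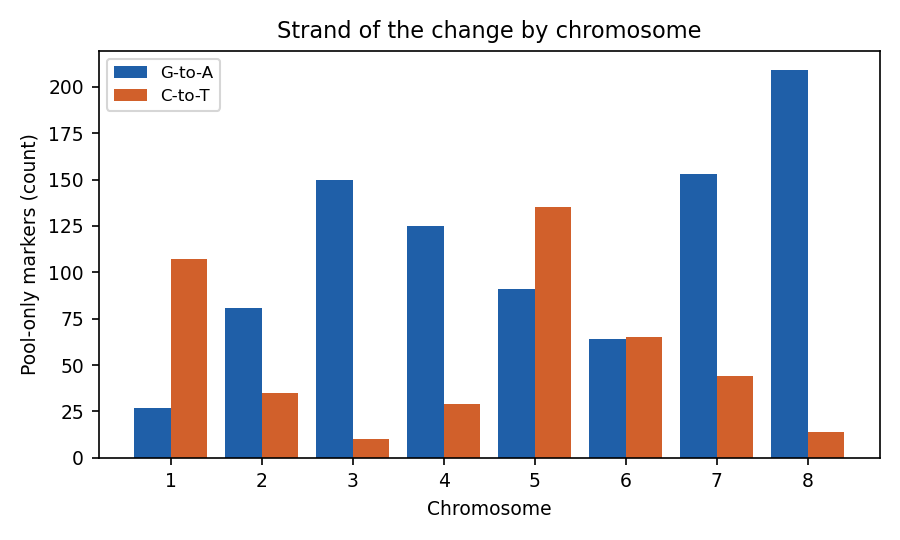
Number of pool-only G-to-A (blue) and C-to-T (orange) markers on each of the 8 chromosomes. Chromosome 8 held 209 G-to-A and 14 C-to-T markers and chromosome 3 held 150 and 10, while chromosome 6 held 64 and 65.

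Most of the 14 C-to-T markers did not follow the level around them. Apart from the 2 fixed ones, 12 lay between 0.222 and 0.597, and none lay between 0.597 and 1. Over all 14 the median coverage was 83.5 reads (quartiles 41.2 and 130), and 7 of the 14 had more than 100 reads. Of the 14, 10 were below their neighbours, meaning that the upper bound of the interval was under the median of the 5 markers on each side, or of fewer at the ends of the chromosome. C536502T (0.532, neighbours 0.542) and C2965983T (0.551, neighbours 0.518), named after their values were seen, stood at the local level, near the left end. That level is itself near 0.5, and these sites were deep, with 139 and 165 reads, and had variant qualities of 33.5 and 31.5. Among the 209 G-to-A markers, 32 were below their neighbours, or 15.3% (11.1 to 20.8%).

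Along the chromosome the G-to-A markers traced an asymmetric curve. It began near 0.5, at 0.526 for the first marker (G57807A, 40 of 76 reads), and ended near it, at 0.485 for the last (G49769384A, 32 of 66 reads). Between these ends it climbed over the first 10 Mb, stayed level for about 25 Mb, climbed again to the cluster and dropped over the last 7.67 Mb. The values below pool the reads of the 177 G-to-A markers that were not below their neighbours. Leaving out low sites raises the level and narrows the scatter by construction, so for the stretches on which the curve's shape rests the pooled share and the median of all members are given too.

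**Figure D3:**
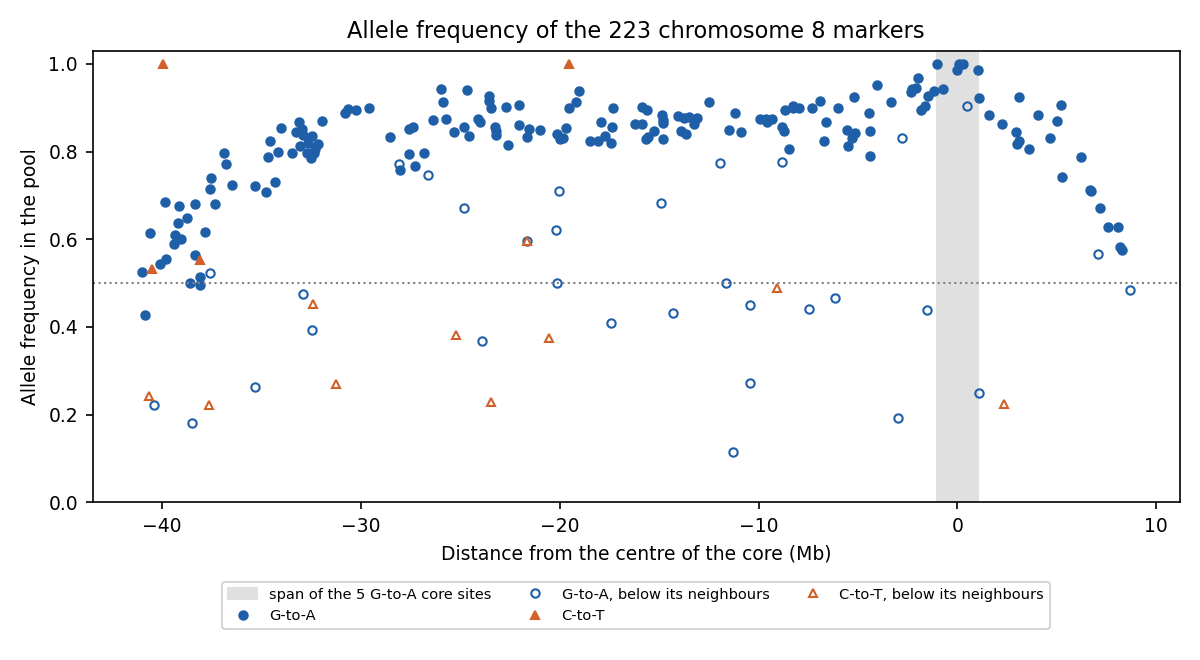
Allele frequency in the pool of all 223 chromosome 8 markers against distance in Mb from the centre of the fixed cluster, G-to-A as blue circles and C-to-T as orange triangles, open where a marker was below its neighbours, with a dotted line at 0.5. The filled circles rise from about 0.5 at the far left to a level stretch with a median of 0.866, reach 1 in the grey span of the cluster and fall back to near 0.5 at the right end.

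If every plant in the pool was homozygous for a recessive causal change inside the cluster, the share of reference reads at a marker estimates how often a crossover separated it from that change. The share was 7.14% (5.29 to 9.58%) from 37.5 to 40 Mb and 13.5% (11.1 to 16.3%) from 35 to 37.5 Mb. By Haldane's function, which allows for multiple crossovers, these shares correspond to 7.71 cM (5.59 to 10.6) and 15.7 cM (12.6 to 19.7) from the cluster. With all members the pooled shares were 22.7% (19.97 to 25.6%) from 37.5 to 40 Mb and the same 13.5% from 35 to 37.5 Mb, which turns their order round. The bin nearer the cluster holds G39527243A and G38076605A, with 68 and 71 reference reads. G38284381A, with 14 reference reads in 83, was left out of it as low too. The median allele frequency of all members, on which single sites weigh less, was 0.919 and 0.847 in these bins. In the bin of the cluster, from 40 to 42.5 Mb, the share was 2.23% without low sites and 8.32% with all members. The low sites left out of this bin were G42178382A (30 reference reads in 40) and G41574114A (5 in 52). G41574114A lies inside the cluster, so the 2.23% is partly set by leaving it out. The median allele frequency of all members there was 0.9855.

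From 15 to 35 Mb the share without low sites hardly moved. It was 12.4% (9.69 to 15.7%) from 32.5 to 35 Mb and 11.6% (9.05 to 14.7%) from 15 to 17.5 Mb, and the bins between ran from 12.1% to 15.2% with overlapping intervals. With all members the pooled share was higher and uneven, from 19.8% (25 to 27.5 Mb) to 41.4% (27.5 to 30 Mb, where G29806650A alone has 219 reference reads). The bin medians of allele frequency over all members ran from 0.836 to 0.882 between 15 and 35 Mb. Over the whole stretch from 10 to 35 Mb, 86 such markers had a median of 0.866 in allele frequency, with quartiles at 0.842 and 0.895. Their scatter was 0.687 times the variance that counting reads alone would give. With all 111 markers of the stretch the median was 0.851 and the ratio rose to 15.5, since 25 C-to-T or low sites came back in. The control sites fixed in pep1-1 gave 0.297% reference reads in the same stretch (162 sites, 0.207 to 0.426%).

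Without low sites, the share of reference reads rose in steps towards the left end. It was 17.6% (15.2 to 20.2%) from 7.5 to 10 Mb, 22.4% (18.7 to 26.5%) from 5 to 7.5 Mb, 36.2% (33.1 to 39.3%) from 2.5 to 5 Mb and 41.4% (38.2 to 44.6%) from 0 to 2.5 Mb. The corresponding map distances from the cluster were 21.6 cM, 29.7 cM, 64.2 cM and 87.8 cM, the last with an interval of 72.1 to 111 cM. Thus most of the implied map on the left lay in the outermost 10 Mb. With all members the pooled shares of these 4 bins were 29.4%, 26.9%, 41.2% and 42.3%, so the order of the bins from 5 to 10 Mb turned round. The median allele frequencies of all members were 0.810, 0.760, 0.617 and 0.590. The control sites there gave 0.0624% reference reads (73 sites). Leaving out low sites did not remove G2965945A (72 reference reads in 148) and G2967386A (74 in 147) from the bin from 2.5 to 5 Mb. The medians of their neighbours were only 0.537 and 0.557. Within 150 bases of them lay 6 and 5 other pool sites. Scatter in that bin was 4.71 times the variance that counting reads alone would give. Their part in its 36.2% and 64.2 cM was not tested.

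The right side was shorter. The share was 14.7% (11.8 to 18.2%) from 42.5 to 45 Mb, 16.1% (12.9 to 19.9%) from 45 to 47.5 Mb and 35.5% (31.3 to 39.8%) from 47.5 to 50 Mb, or 17.5, 19.5 and 61.8 cM. With all members it was 26.4%, 16.1% and 38.1%, with median allele frequencies of 0.834, 0.850 and 0.629. A straight line through the 21 markers past the cluster that were not below their neighbours rose by 4.37 ± 0.589 percentage points of reference reads per Mb (standard error of the fit). The same line over the 10 Mb before the cluster rose by 0.713 ± 0.221 (36 markers), and over the nearest 5 Mb by 1.94 ± 0.578 (19 markers). Neighbouring markers share plants and crossovers, so these errors are too small. With all members, including the low ones, the slopes were 1.79 ± 1.68 on the right (25 markers) and 0.979 ± 1.02 on the left (45 markers), each within 2 standard errors of 0. Fitted to the medians of 1 Mb bins of all members, they were 4.10 ± 0.930 on the right and 2.82 ± 1.28 on the left. The right slope was the larger in each of these pairs, but how much larger depended on how the low sites were treated. With all members, and with the 1 Mb medians, the ranges of 1 standard error on the left and right overlapped. Those pairs do not separate the sides. The lines also cover unlike distances, as the right side ends 7.67 Mb past the cluster.

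**Figure D4:**
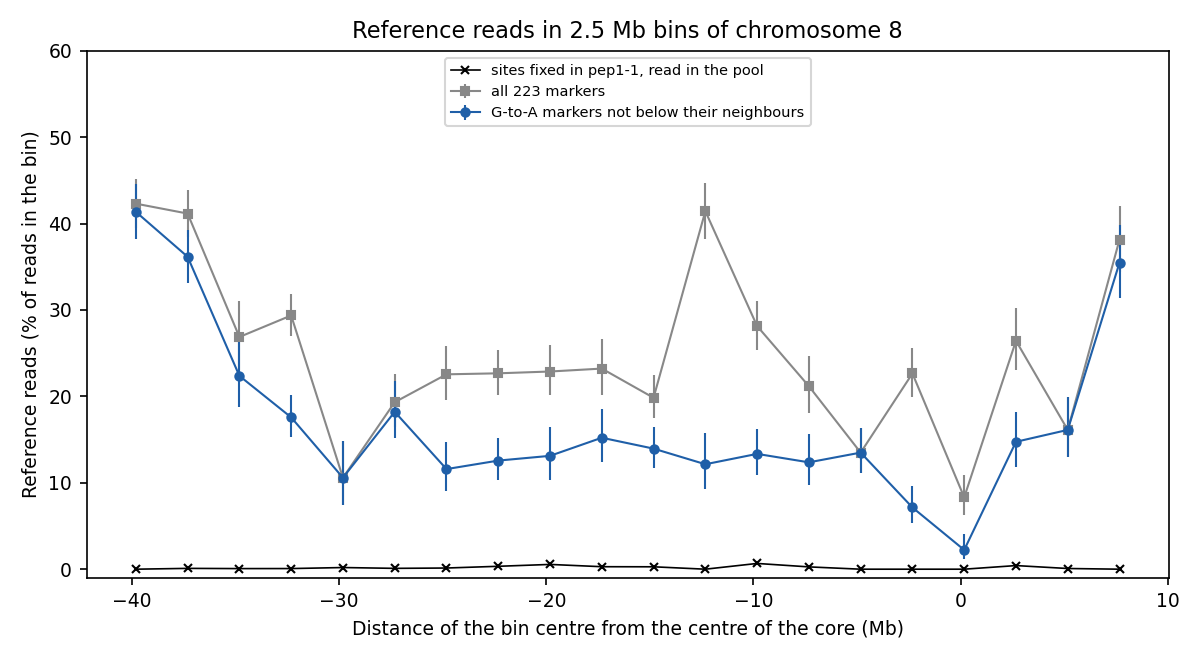
Share of reads with the reference base in 2.5 Mb bins of chromosome 8, in percent, against the distance of the bin from the centre of the fixed cluster, for all 223 markers (grey squares), for G-to-A markers not below their neighbours (blue circles) and for sites fixed in pep1-1 (black crosses), with Wilson 95% intervals as bars on the markers. The blue line runs from 41.4% at the left end through a level stretch to 2.23% in the bin of the cluster and back to 35.5%, while the control sites stay under 1% in every bin.

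The level stretch had an exception near its left edge. From 12.5 to 15 Mb, 8 markers showed 18.2% reference reads (15.2 to 21.7%). That was more than the 10.6% (7.47 to 14.8%) of the 4 markers from 10 to 12.5 Mb, further from the cluster. It was also more than the 11.6% (9.05 to 14.7%) of the 9 markers from 15 to 17.5 Mb. With all members the pooled shares from 10 to 17.5 Mb were 10.6%, 19.3% and 22.6%, with median allele frequencies of 0.896, 0.796 and 0.863. G11455553A had 62 of 69 reads with the change and G12550603A, the next marker, had 65 of 78. They lie on either side of a gap of 1.10 Mb. These bins came from few sites, and the intervals only just failed to overlap. G11455553A is also an end of that gap, which is named after its values were seen.

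Markers below their neighbours were spread along the whole chromosome. There were 42, or 18.8% of the 223 (14.2 to 24.5%), where 14.9% of the 1339 markers on the 8 chromosomes were below theirs. The lowest were G29806650A at 0.113 (28 of 247 reads), G2590380A at 0.182 (10 of 55) and G38076605A at 0.193 (17 of 88). C3420243T and G641952A followed at 0.222 (8 of 36 reads each). Next came C43428729T at 0.224, C17586831T at 0.228, C389418T at 0.243, G42178382A at 0.25 and G5728014A at 0.262. C9811195T at 0.269 and G30653037A at 0.272 completed the lowest 12.

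Depth moved with this class. A coverage over 100 reads was found at 19 markers, 8.52% of the 223, against 9.78% of all 1390 markers. Of the 19, 15 were below their neighbours, or 78.9% (56.7 to 91.5%), while 27 of the 204 with less coverage were, or 13.2% (9.26 to 18.6%). The deep markers had a median of 61 reads with the change and 68 reference reads, and the others had 51 and 10. So the deep sites carried about as many changed reads as ordinary sites and many more reference reads. None of the 19 exceeded 0.597. Examples named after their values were seen are G20933020A with 61 of 122 reads and G29441382A with 73 of 146, amid neighbours at 0.835 and 0.856.

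**Figure D5:**
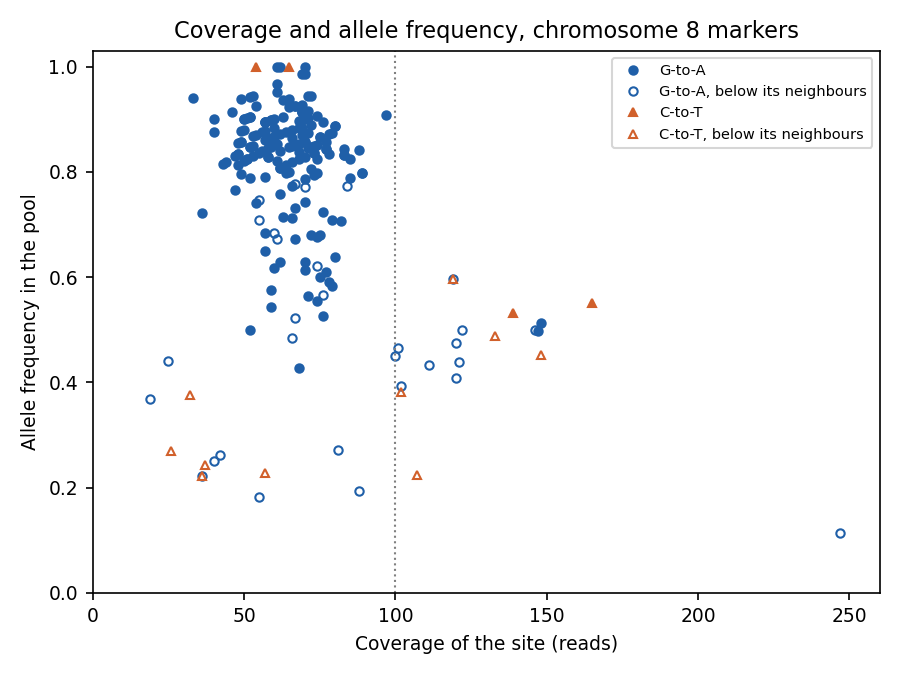
Allele frequency in the pool against coverage in reads for the 223 chromosome 8 markers, symbols as in the plot along the chromosome, with a dotted line at 100 reads. Of the 19 markers to the right of the line 15 are open symbols, and none is above 0.597.

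The deep markers also sat among other variants. Another site of the pool list lay within 150 bases of 16 of the 19 deep markers, or 84.2% (62.4 to 94.5%), and of 5 of the other 204, or 2.45% (1.05 to 5.61%). Among the markers below their neighbours it was 13 of the 15 deep ones and 5 of the 27 others, and among the 181 that were not below it was 3. Around G39527243A, 8 other pool sites lay within that distance, and around G8608780A, the most crowded, 10. None of the 5 cluster sites had a listed site of either library so close. Low variant quality moved with the class as well: 17 of the 42 had a quality under 50 (40.5%, 27.04 to 55.5%), against 12 of the other 181 (6.63%, 3.83 to 11.2%). The part of depth, crowding or quality in the low allele frequencies was not tested.

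The remaining low markers, 27 of the 42, had up to 100 reads. Some were mild, such as G38284381A at 0.831 near the cluster, where its neighbours had a median of 0.925, and G12994666A at 0.771, against 0.854. Both are named after their values were seen. The last marker, G49769384A, was in this class too, at 0.485 against a median of 0.629. Its neighbours all lie on 1 side, towards the cluster.

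Spacing set how finely the curve could be read. Neighbouring markers lay a median of 0.153 Mb apart (interquartile range 0.065 to 0.331 Mb), or 4.47 markers per Mb. Medians on the other chromosomes ran from 0.0845 to 0.175 Mb. There were 3 gaps over 1 Mb. The largest, 1.16 Mb from G4563121A (0.724) to G5728014A (0.262), fell where the allele frequency was climbing. Inside the cluster the largest gap was 0.722 Mb, between G40349822A and G41071837A, and there the pool list held 11 other variants and the progenitor list 14, so reads did map there. In 3 cases neighbouring markers lay within 100 bases and may share reads: G2965945A with C2965983T, G19439746A with C19439755T, and G30652967A with G30653037A.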

How the data were processed

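The submitters' processing notes name Bowtie2, SAMtools and DESeq, with no version, role or order. The deposited allele frequency is a fraction, changed reads over all reads. Per the file headers 2 further columns are reads and quality, but their values fit the exchanged names. The first, almost never whole, was taken as the authors' variant quality score, and the second, always whole, as the deposited count of changed reads. That count over a whole number gave the listed fraction within 5e-05 at 14923 of 14923 pool and 14029 of 14029 pep1-1 sites, and the whole number was taken as coverage. Median coverage over all listed sites was 106 reads in the pool and 100 in pep1-1. No per-sample column was left unmatched.

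Shares carry Wilson 95% intervals. The limit for a count of 0 is 3 counts. Both cover counting error only. Flank lines were least-squares fits weighted by coverage. The scatter ratio is the Pearson chi-square over its degrees of freedom. No test was run, as each group had 1 library. The code was tested on simulated data. Members, lists and rules were chosen with earlier results of these data known. Sites named are those at 0.98 or more, those between and the 5 on each side of the cluster, chromosome and gap ends, the 12 lowest below their neighbours and those at the minimums. Python 3.11.15, numpy 2.4.6, pandas 2.3.3 and matplotlib 3.10.9 were used.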

Additional observations from a re-analysis of the deposited data

How the results depend on the processing

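Of 92 values under alternatives, 77 kept their direction and stayed within the range set for each value, 12 moved and 3 turned direction. That range is wide for the slopes, whose errors are large. It took in right slopes from 1.79 to 4.37 (main value 1.79) and left slopes from 0.331 to 2.82 (main value 0.979). Of the 92, 2 were added after seeing the data. With all substitution types there were 395 sites in place of 223, with a median allele frequency of 0.552 in place of 0.833, a median spacing of 0.0732 Mb in place of 0.153 Mb and 134 sites below their neighbours in place of 42. The right slope, with all sites, was then -4.26 in place of 1.79 percentage points per Mb. With no quality minimum, 11 sites stood at 0.98 or more in place of 7, with 5 inside the cluster span, 83 were below their neighbours, 85.6% were G-to-A and the left slope was -0.0549 in place of 0.979. With a coverage maximum of 100 reads, 27 were below their neighbours and 96.6% were G-to-A. Near-fixed markers numbered 135 at a threshold of 0.8 and 9 at 0.95. Over the nearest 5 Mb with all members the left slope was -1.96, and without those below their neighbours 1.94. When only progenitor sites past both minimums were subtracted, 10 sites stood at 0.98 or more, with 5 inside the cluster span, and 89.2% were G-to-A. With low sites kept, the slopes had standard errors of 1.02 and 1.68, and the level stretch fell from 0.851 by site median to 0.756 by pooled reads. For these shifts the cause was not tested unless the setting itself removes or adds sites. A median of 66 reads limits how finely a single marker's allele frequency can be read. No paired analysis was possible because the pool and pep1-1 are single libraries, so leaving one out was not run either.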

Other observations

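Among pool-only sites of chromosome 8 that were neither G-to-A nor C-to-T, 172 passed both minimums, 110 of them G-to-T or C-to-A, with a median allele frequency of 0.290. Of the 172, 6 stood at 0.9 or more, against 1 of 134 such sites listed only in pep1-1. Of the 6, 4 had coverage from 657 to 3480 reads, among them A46586843C at 0.978 and A20041069C at 0.924. The other two were A12970667G with 10 of 10 reads and T25854470G with 10 of 11. None of the 6 lay between 37 and 45 Mb, where 40 of the 172 were found and the highest allele frequency was 0.6.

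A further 63 pool-only G-to-A or C-to-T sites of the chromosome missed a minimum, and 8 of these stood at 0.9 or more. They included G15984952A with 61 of 67 reads and G37894808A with 68 of 75, both at ordinary depth with variant qualities of 15.6 and 9.92. Near-fixed markers were not confined to the neighbourhood of the cluster: 17 of the 23 markers from 37 to 43 Mb were near-fixed, and so were 23 of the 200 elsewhere on the chromosome.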
